A study of Mus musculus with 8 samples.

Results

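miR-146a, miR-146b and miR-155 were followed in the livers of mice given carbon tetrachloride (CCl4), a hepatotoxin used to induce liver fibrosis, for 1, 4 or 8 weeks and of untreated mice. They were 3 of the 381 assays on the TaqMan Array Rodent MicroRNA A Cards, picked by name from the deposited table after the species prefix and assay number were removed. Every well runs a quantitative PCR for a single small RNA, and its reading is the threshold cycle (Ct), which is lower by 1 for about each doubling of template. Each of the 3 gave a Ct on every one of the 8 cards, with a mean below 35, so all 3 were among the 166 assays that could be tested.

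Total liver RNA came from female C57/BL6 mice that were 4 weeks old when treatment began. CCl4 in corn oil was injected intraperitoneally 2 times a week, at a dose written as 1 mg/kg in the sample labels and 1 ml/kg in the Methods. The untreated group is labelled as receiving none, with no mention of corn oil and no age at collection, so that length of exposure and age cannot be told apart. Each of the 4 groups had 2 cards, and nothing in the labels ties a replicate to a mouse of its own. The series description gives more mice than cards for 1 and 4 weeks and does not say how mice were assigned to cards, so p-values measure the spread between these cards, which may be technical. Across the cards 193 to 235 assays had a Ct, the mean Ct over 149 assays below Ct 35 on every card lay between 27.5 and 29.8, and the second 4-week card was the faintest. miR-122, the defining miRNA of hepatocytes, ranked between 3 and 18 from the lowest Ct on each card. Levels below are that card mean minus the Ct of the assay, a log2 scale on which higher means more template.

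miRNAs are short RNAs that pair with messenger RNAs, mainly through bases 2 to 8, the seed, and lower their output. miR-146a and miR-155 are classic targets of NF-kB, the transcription factor that Toll-like receptors and inflammatory cytokines switch on. miR-146a represses Traf6 and Irak1, which act downstream of those receptors, and so acts as a brake on the signal, and miR-146b shares its seed. miR-155, made from a host transcript in activated macrophages and lymphocytes, represses Socs1 and Inpp5d, inhibitors of cytokine and phosphoinositide signalling. In the liver these miRNAs are known from macrophages and other leukocytes as well as from activated stellate cells, and a whole-tissue measurement does not tell a change in cell numbers from a change in RNA per cell.

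The mature sequences show which assays read related molecules. The assay names carry no arm, and each was matched by name to the 5p mature miRNA in RefSeq (GRCm38.p6), with the seed in capitals. RefSeq places them at chr11:43374435-43374456 on the minus strand (gene Mir146), chr19:46342790-46342811 on the plus strand (Mir146b) and chr16:84714143-84714165 on the plus strand (Mir155).
miR-146a: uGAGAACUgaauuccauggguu
miR-146b: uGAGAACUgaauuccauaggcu
miR-155: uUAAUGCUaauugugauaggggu
miR-146a and miR-146b are identical at 20 of 22 positions and differ by G18A and U21C, counted from the 5′ end of miR-146a. Of the 376 miRNA assays on the cards, 264 matched a RefSeq mature miRNA by name, and no other of these carried either seed. In the same annotation Mir146b lies within the interval of the long non-coding RNA gene Gm36493 and Mir155 within that of its host gene Mir155hg, while the interval of Mir146 overlaps no other gene.

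After 1 week of CCl4 all 3 miRNAs were higher than in untreated liver, miR-146b by 13.3-fold, miR-146a by 3.45-fold and miR-155 by 2.64-fold, each from the mean log2 difference. By limma with Benjamini-Hochberg adjustment over the 166 assays, 32.5% of assays were changed at 1 week and 18.1% were higher. The split was 30 higher and 24 lower, against 18 and 33 with cards scaled to the mean of everything detected on them. miR-146b held rank 3 among the 166 log2 fold changes, miR-146a rank 20 and miR-155 rank 30. The plot of levels on every card shows the 1-week mean as the high point of each miRNA and the later means stepping down towards untreated.

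**Figure D1:**
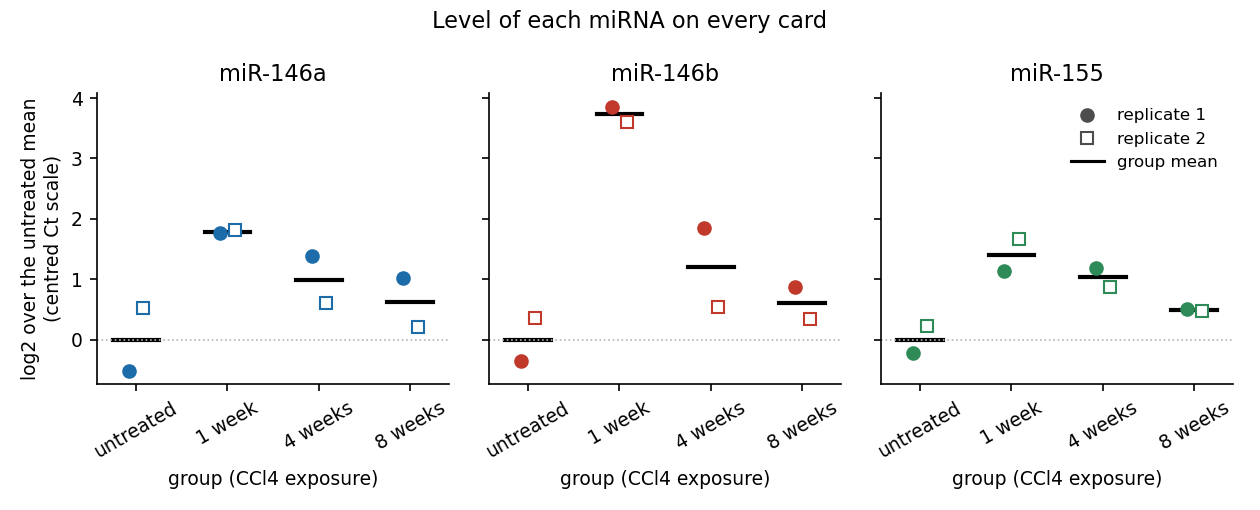
Level of miR-146a, miR-146b and miR-155 on each of the 8 cards, as log2 over the mean of the untreated cards, by group. Circles and squares are replicates 1 and 2 and bars are group means; miR-146b at 1 week stands at 3.86 and 3.61, while its 8-week cards stand at 0.86 and 0.35.

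miR-146b, which has the miR-146 seed but a gene of its own, read 28.43 and 27.37 cycles on the untreated cards and 24.64 and 24.72 at 1 week. After centring, its level was -0.08 and 0.62 in untreated liver. The 1-week cards read 4.13 and 3.88, the 4-week cards 2.11 and 0.81 and the 8-week cards 1.13 and 0.62. Both 1-week cards lay above all other cards, as they did for miR-146a and for 22.9% of the tested assays, and the second 8-week card lay within the untreated range. The increase at 1 week was 3.73 on the log2 scale (95% interval 2.61 to 4.86, n = 2 cards per group, adjusted p = 0.00334 from limma). At 4 weeks the difference from untreated was 1.20 (0.07 to 2.32, adjusted p = 0.0999) and at 8 weeks 0.61 (-0.52 to 1.73, adjusted p = 0.402), neither past the threshold of 0.05. The 4-week pair was the most divided of the miR-146b pairs, with an SD of 0.92, so the 4-week difference was 0.55 without its first card (adjusted p = 0.406, limma, with 1 card left in that group) and 1.85 without its fainter second card (adjusted p = 0.0322).

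miR-146a, the brake on Traf6 and Irak1, had the lowest mean Ct of the 3, at 23.4. Its level was 3.70 and 4.73 in untreated liver. The 1-week cards read 5.98 and 6.03, the 4-week cards 5.59 and 4.81 and the 8-week cards 5.23 and 4.43. The 1-week cards agreed closely and lay above all other cards, whereas the untreated cards spread widely (SD 0.73) and the second 8-week card fell between them. The rise at 1 week was 1.79 (95% interval 0.69 to 2.88, adjusted p = 0.0258, limma). The differences at 4 weeks (0.99, -0.11 to 2.09, adjusted p = 0.146) and 8 weeks (0.62, -0.48 to 1.71, adjusted p = 0.398) did not pass. The 4-week difference passed with quantile normalization (1.72, adjusted p = 0.0341) and with scaling to the control RNAs U6, snoRNA135 and snoRNA202 (1.63, adjusted p = 0.0325), whereas without the first untreated card the 4-week and 8-week values were 0.47 and 0.099, and without the second 1.51 and 1.14. The 1-week call was lost without the first untreated card (1.27, adjusted p = 0.162), without the first or second 1-week card (1.81 and 1.76, adjusted p = 0.0869 and 0.112), and when cards were scaled to everything detected (1.43, adjusted p = 0.0880).

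miR-155, the repressor of Socs1 and Inpp5d, had the highest mean Ct of the 3, at 29.8. Its level was -2.26 and -1.81 in untreated liver. The 1-week cards read -0.89 and -0.37, the 4-week cards -0.85 and -1.17 and the 8-week cards -1.54 and -1.56. It was the one of the 3 for which all 6 CCl4 cards lay above both untreated cards, a pattern shared by 13.3% of the tested assays. The increase was 1.40 at 1 week (95% interval 0.65 to 2.15, adjusted p = 0.0157, limma) and 1.03 at 4 weeks (0.28 to 1.78, adjusted p = 0.0457), where 30.1% of assays were changed and 13.3% were higher. That split was 22 higher and 28 lower, against 12 and 27 when scaled to everything detected and 45 and 11 with the control RNAs. At 8 weeks it was 0.49 (-0.26 to 1.24, adjusted p = 0.337), at a time when 3.01% of assays were changed. The 4-week call did not survive the loss of any card (adjusted p = 0.0622 to 0.192), and the 1-week call was lost without the first untreated card (1.17, adjusted p = 0.110) or the second 1-week card (1.14, adjusted p = 0.112). Scaling to everything detected took both calls (1.04, adjusted p = 0.150, and 0.75, adjusted p = 0.344). The control RNAs took the 1-week call (1.16, adjusted p = 0.0546). Quantile normalization (0.59, adjusted p = 0.182), eBayes with a trend (adjusted p = 0.0585) and a block for the replicate number (adjusted p = 0.0620) took the 4-week call.

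**Figure D2:**
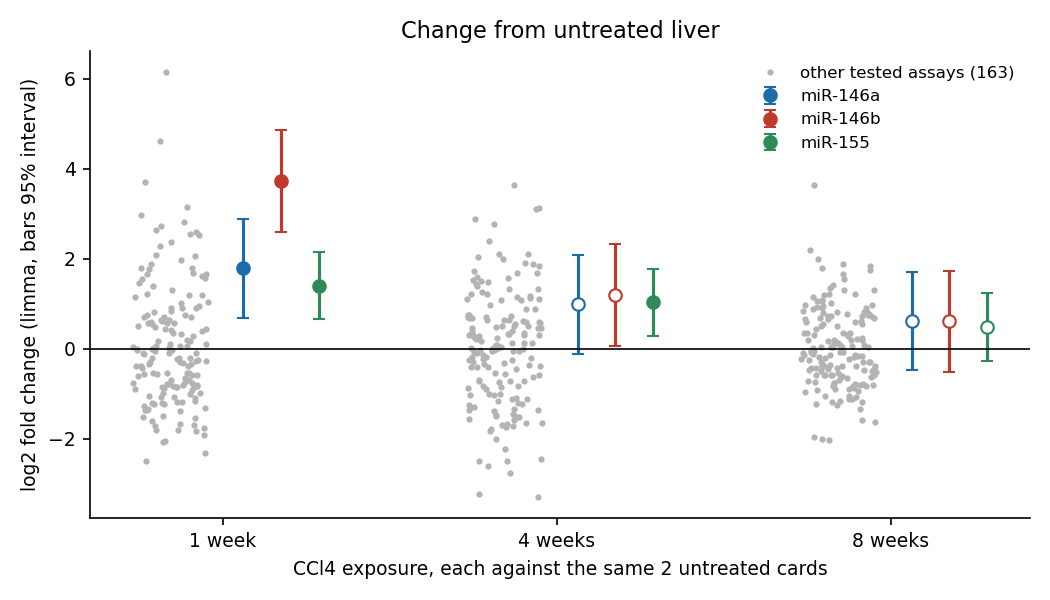
Log2 fold change from untreated liver at 1, 4 and 8 weeks for miR-146a, miR-146b and miR-155 (coloured, 95% limma intervals, filled where the adjusted p was 0.05 or less) beside the other 163 tested assays (grey). All 3 are filled at 1 week, only miR-155 is at 4 weeks and none is at 8 weeks, and every estimate lies above 0.

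Pooled over exposure, with the 3 treated group means averaged, miR-146b stood 1.84 above untreated (adjusted p = 0.0150, limma) and miR-155 0.97 (adjusted p = 0.0288), while miR-146a at 1.13 did not pass (adjusted p = 0.0634). In this comparison 28.9% of assays were changed and 12.7% were higher, 21 against 27 lower. The split was 29 against 6 with the control RNAs and 10 against 14 when scaled to everything detected. Scaling moved these calls, since miR-146b did not pass with quantile normalization (1.70, adjusted p = 0.0601), nor miR-155 with quantile normalization (0.65, adjusted p = 0.0877) or when scaled to everything detected (0.74, adjusted p = 0.296). miR-146a passed with quantile normalization (1.39, adjusted p = 0.0353) and with the control RNAs (1.42, adjusted p = 0.0349). The miR-146b call needed both untreated cards (1.49, adjusted p = 0.134, and 2.20, adjusted p = 0.0691, without the first and second). The miR-155 call was lost without the first untreated card (0.75, adjusted p = 0.223), the second untreated card (1.20, adjusted p = 0.0797), the second 1-week card (0.89, adjusted p = 0.0709), the first 4-week card (0.92, adjusted p = 0.0541), and narrowly without the first 8-week card (0.97).

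With the main scaling, the group means of all 3 miRNAs fell in the order 1 week, 4 weeks, 8 weeks, untreated. This order was found in 12 of the 166 tested assays (7.23%). It did not hold with the control RNAs for miR-146a and miR-155, nor with quantile normalization for miR-146a. Among the neighbouring steps, the fall of miR-146b from 1 to 4 weeks was the one that passed. It fell by 2.54 on the log2 scale, or 5.80-fold (95% interval -3.66 to -1.41, adjusted p = 0.00756, limma), in a comparison in which 47.0% of assays differed and 25.3% were lower. The size of the fall was less firm than its call, at -1.66 with the control RNAs, -3.19 without the first 4-week card and -1.89 without the second. With the control RNAs 72 assays were higher and 20 lower at 4 weeks than at 1 week, against 36 and 42 in the main analysis. From 1 to 8 weeks it fell by 3.12, or 8.72-fold (-4.25 to -2.00, adjusted p = 0.00719), where 24.1% of assays differed and 13.9% were lower. With the control RNAs it was -2.425, and 46 assays were higher and 10 lower, against 17 and 23 in the main analysis and 21 and 12 when scaled to everything detected. The call from 1 to 8 weeks was lost without the second 1-week card (-3.25, adjusted p = 0.0518) or the second 8-week card (-2.87, adjusted p = 0.0615).

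The same steps were smaller for the other two. From 1 to 4 weeks miR-146a differed by -0.80 (-1.89 to 0.30, adjusted p = 0.189, limma) and miR-155 by -0.37 (-1.12 to 0.38, adjusted p = 0.361). From 1 to 8 weeks the differences were -1.17 (-2.27 to -0.07, adjusted p = 0.102) and -0.91 (-1.67 to -0.16, adjusted p = 0.0729), so their intervals left 0 out but the adjusted p did not pass. Between 4 and 8 weeks 1.2% of assays differed. The 3 differences were -0.37 for miR-146a, -0.59 for miR-146b and -0.54 for miR-155 (adjusted p = 0.380 to 0.688). Without the first 4-week card this step changed sign for miR-146a (0.017) and miR-146b (0.062). Without the second 8-week card it did so for miR-146a (0.030). With scaling to the control RNAs, the step from 1 to 4 weeks changed sign for miR-146a (0.08) and miR-155 (0.51), and for miR-146a it did so under quantile normalization as well (0.11), none of these past the threshold.

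Because both members of a pair are read on the same card, the difference of their raw Ct values does not depend on how cards are scaled. miR-146b crossed the threshold 3.78 and 4.11 cycles after miR-146a on the untreated cards and 1.85 and 2.15 cycles after it on the 1-week cards. On the 4-week cards the gap was 3.48 and 4.00 cycles and on the 8-week cards 4.10 and 3.81. The gap was thus narrower on both 1-week cards than on any other card, and the 4-week and 8-week cards overlapped the untreated range. How many other assays showed this pattern against miR-146a was not counted. After centring, 22.9% of the tested assays had both 1-week cards above all other cards. Its mean fell from 3.94 ± 0.23 cycles (SD, n = 2) to 2.00 ± 0.21 at 1 week, and at 8 weeks it was 3.96 ± 0.21. Differences of Ct between assays also carry each assay's efficiency, so only their change between cards was compared.

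**Figure D3:**
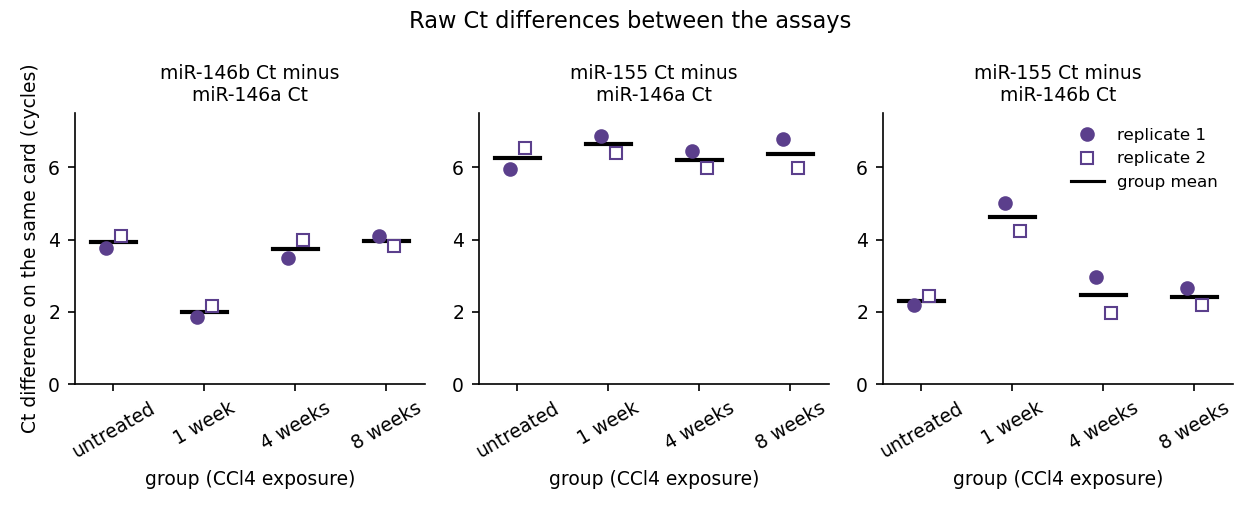
Raw Ct differences between pairs of the 3 assays on each card, in cycles, by group, with circles and squares for replicates 1 and 2 and bars for group means. The gap from miR-146a to miR-146b drops to 1.85 and 2.15 cycles at 1 week, the gap from miR-146b to miR-155 widens to 5.02 and 4.25, and the gap from miR-146a to miR-155 stays between 5.96 and 6.87 on all 8 cards.

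Over all exposures the relative level of miR-146b to miR-146a was higher by 0.71 on the log2 scale than in untreated liver. This did not pass an exact two-sided permutation test of 6 against 2 cards (p = 0.393, smallest possible p = 0.0357). Leaving out 1 card moved the value to between 0.44 and 0.89. A test of the single times, added after the values were seen, scaled every card to miR-146a and fitted the other 165 assays with limma. Relative to miR-146a, miR-146b rose by 1.95 at 1 week, or 3.85-fold (95% interval 0.68 to 3.21, adjusted p = 0.0120), one of 3 assays (1.82%) called higher than miR-146a in this way. At 4 and 8 weeks the relative change was 0.21 (-1.06 to 1.47, adjusted p = 0.804) and -0.01 (-1.27 to 1.25, adjusted p = 0.987). The relative level then fell by 1.74 from 1 to 4 weeks (adjusted p = 0.0434) and by 1.96 from 1 to 8 weeks (adjusted p = 0.0298). In these comparisons 6.67% and 1.82% of the 165 assays were lower. Both falls lost their call with a block for the replicate number (adjusted p = 0.0804 and 0.0502, limma). The 1-week call was lost without the first untreated card (2.11, adjusted p = 0.0523), the first 1-week card (1.80, adjusted p = 0.127) or the second (2.10, adjusted p = 0.0793). The fall from 1 to 4 weeks was lost without any 1 of the 6 CCl4 cards (-2.00 to -1.48, adjusted p = 0.0517 to 0.258), and the fall from 1 to 8 weeks without either 1-week or either 8-week card (-2.10 to -1.81, adjusted p = 0.0895 to 0.224).

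Scaled to miR-155 instead, miR-146b rose by 2.33 at 1 week (95% interval 1.24 to 3.42, adjusted p = 0.000924, limma), where 5.45% of the 165 assays were called higher, and this held without any one card (1.95 to 2.71). Relative to miR-155 it then changed by -2.165 from 1 to 4 weeks (adjusted p = 0.00304) and by -2.21 from 1 to 8 weeks (adjusted p = 0.00328), where 18.2% and 3.64% of assays were lower, the first of these not past the threshold without the second 4-week card (-1.68, adjusted p = 0.0794). miR-155 and miR-146a were not told apart by their responses. The change of miR-155 relative to miR-146a was -0.39 at 1 week (-1.69 to 0.92), 0.04 at 4 weeks (-1.27 to 1.35) and -0.13 at 8 weeks (-1.44 to 1.18), intervals that still allow a difference of more than 2-fold either way, except upwards at 1 week.

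The size of the increases varied with the scaling of the cards, as it did with the cards left out. With cards scaled to everything detected on them, the median log2 fold change of the tested assays moved from -0.09 to -0.45 at 1 week, and with the 3 control RNAs from 0.03 to 0.67 at 4 weeks. Measured against that median, which shifts together with every assay, the 1-week increase was 3.82 for miR-146b, 1.88 for miR-146a and 1.49 for miR-155 under the 3 scalings that add a constant to a card. With the control RNAs all 3 passed at 4 weeks (miR-146a 1.63, miR-146b 1.84, miR-155 1.67, adjusted p = 0.0325, 0.0271 and 0.0131, limma). Under that scaling 45 of the tested assays were higher and 11 lower at 4 weeks, against 22 and 28 in the main analysis. Less the median, the 4-week increases were 0.96, 1.17 and 1.00, the same as with the main scaling. With the control RNAs miR-155 did not pass at 1 week (1.16, adjusted p = 0.0546). U6 itself was 2.38 higher at 1 week and 1.50 lower at 4 weeks with the main centring (adjusted p = 0.00800 and 0.0417, limma). At 1 week snoRNA202 stood at -1.39 (adjusted p = 0.0139) and snoRNA135 at -0.27, which did not pass. None of the 36 values of the 3 miRNAs against untreated under the 3 other scalings was below 0, nor was any of the 60 values from leaving out a card of the groups compared, and the remaining settings leave the log2 value as it is.

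**Figure D4:**
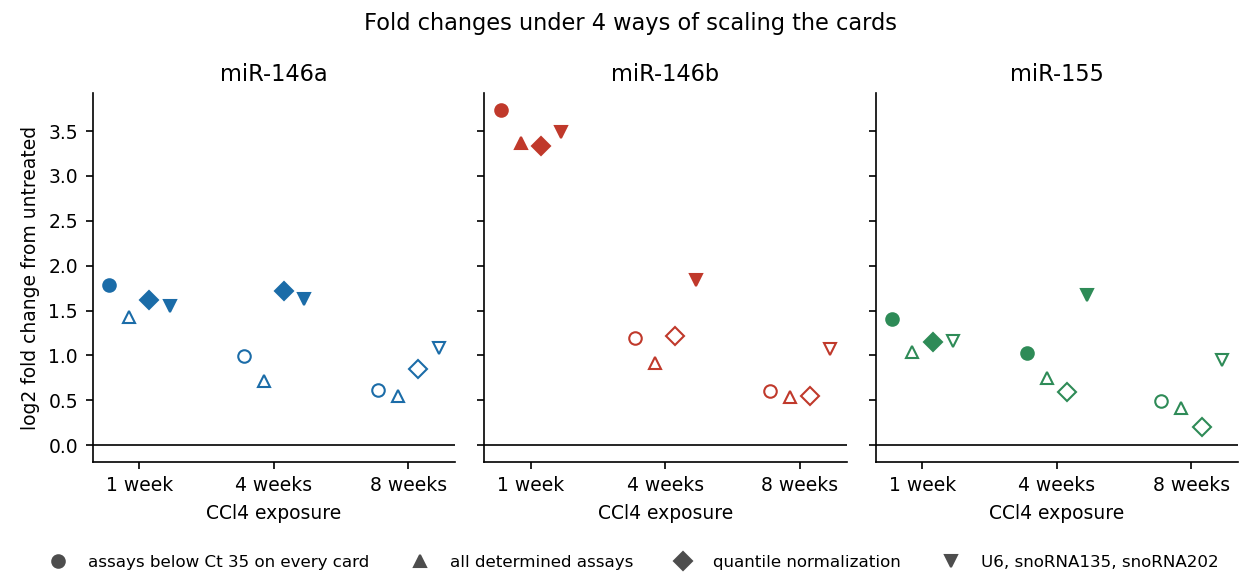
Log2 fold change from untreated liver of the 3 miRNAs at each time under 4 ways of scaling the cards (marker shape), filled where the adjusted p was 0.05 or less. miR-146b at 1 week stays between 3.34 and 3.73 and is filled throughout, whereas the 4-week values spread from 0.59 to 1.84.

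On the 8 cards the levels of the 3 miRNAs moved together, with Pearson's r of 0.92 for miR-146a and miR-146b, 0.91 for miR-146a and miR-155 and 0.86 for miR-146b and miR-155. These points share cards and groups, so the coefficients are descriptions. miR-342-3p, a miRNA enriched in lymphocytes and other leukocytes, was the assay most like miR-155 (r = 0.96) and miR-146a (r = 0.96), and it ranked behind miR-410 and miR-146a for miR-146b (r = 0.91). miR-410, from the imprinted Dlk1-Dio3 region, was most like miR-146b (r = 0.92), and miR-142-5p, a pan-leukocyte miRNA, followed miR-342-3p and miR-146a in likeness to miR-155 (r = 0.89). The log2 fold changes of miR-342-3p were 2.55, 1.69 and 1.02 at 1, 4 and 8 weeks, and those of miR-410 were 4.62, 1.16 and 1.84.

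Of 5 leukocyte marker miRNAs read on the same cards, 4 were higher at 1 week and 4 at 4 weeks and none passed at 8 weeks, beside 18.1% of all tested assays higher at 1 week, 13.3% higher at 4 weeks and 3.01% changed at 8 weeks. Their median log2 fold changes were 1.97, 1.69 and 0.97 against -0.09, 0.03 and -0.04 over all tested assays. The level summed over the 5, relative to its untreated mean, was 0.844 and 1.16 on the untreated cards, and it ranged from 4.16 to 4.47 on the 1-week cards, from 4.20 to 5.14 on the 4-week cards and from 1.76 to 2.21 on the 8-week cards. That sum takes each assay as read, so miR-223, with levels of 2.996 to 6.11, weighs most and miR-142-5p, below -3.95 on every card, hardly counts. With the 5 weighted equally, the mean log2 level over untreated was -0.11 and 0.11 on the untreated cards, and ranged from 1.57 to 1.63 on the 1-week cards, 1.55 to 1.72 on the 4-week cards and 0.62 to 1.00 on the 8-week cards. All 5 had a Ct on every card. Their part in the changes of miR-146a, miR-146b and miR-155 was not tested.

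The single leukocyte markers followed different courses. miR-150, a miRNA of mature lymphocytes, was 1.97 higher at 1 week (adjusted p = 0.00513, limma) and stood at 0.13 and 0.02 at 4 and 8 weeks. Of the arms of the miR-142 hairpin, miR-142-3p stood at -0.20 at 1 week and miR-142-5p was 1.63 higher (adjusted p = 0.00790). The difference between the arms was not tested. At 4 weeks miR-142-3p was 2.00 higher (adjusted p = 0.00529) and miR-142-5p 1.60 higher (adjusted p = 0.00758), and at 8 weeks they stood at 0.82 and 0.97. miR-223, a miRNA of neutrophils and other myeloid cells, was 2.06 and 2.77 higher at 1 and 4 weeks (adjusted p = 0.00411 and 0.00168).

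**Figure D5:**
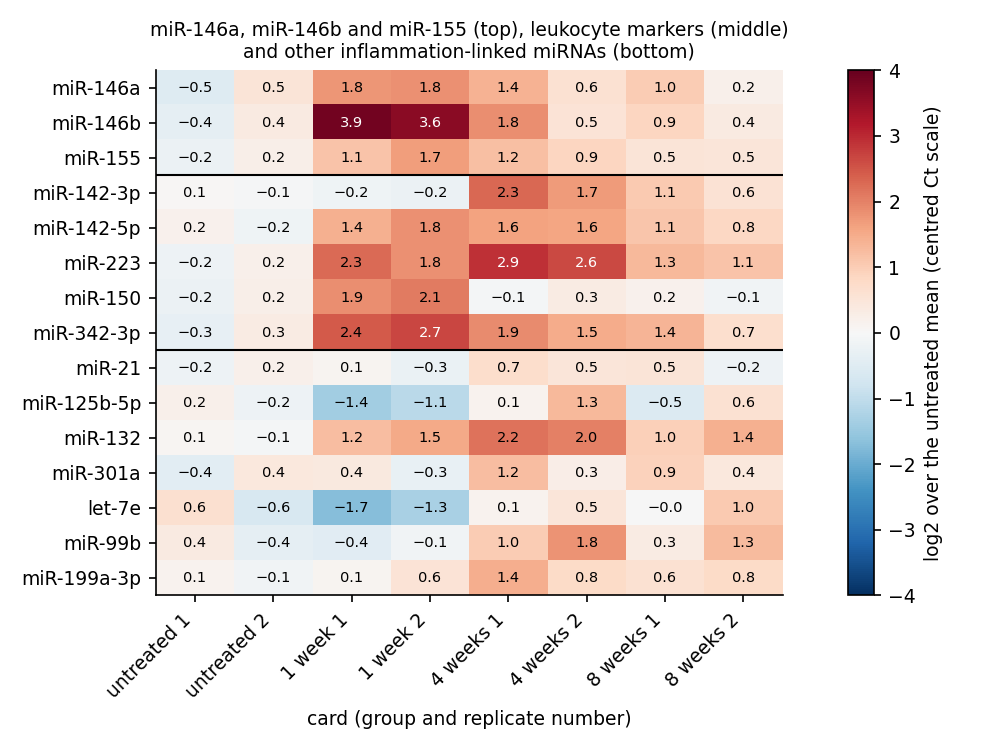
Log2 level over the untreated mean on each card for miR-146a, miR-146b and miR-155, the 5 leukocyte markers and the other tested inflammation-linked miRNAs, with colour and printed value on the same scale. miR-146b is darkest on the 1-week cards (3.9 and 3.6), while miR-223 and miR-132 are darker at 4 weeks than at 1 week.

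Of 13 other miRNAs linked to Toll-like receptor or NF-kB signalling, 11 were on the cards under the names searched and 8 could be tested. At 1 week 2 of the 8 were higher and none was lower, at 4 weeks 3 were higher and none was lower, and at 8 weeks none passed. Over all tested assays 18.1% were higher at 1 week and 13.3% at 4 weeks, and the share at 1 week is close to that of the list. The medians of the 8 were -0.02, 0.92 and 0.68, against -0.09, 0.03 and -0.04 over all tested assays. miR-132, induced by endotoxin in myeloid cells, rose by 1.39 at 1 week and 2.10 at 4 weeks (adjusted p = 0.0129 and 0.00455, limma) and stood at 1.20 at 8 weeks (adjusted p = 0.0787). miR-199a-3p, which is abundant in mesenchymal cells, was 1.10 higher at 4 weeks (adjusted p = 0.0457), and miR-223, also a leukocyte marker, was the remaining one. miR-21, a widely induced miRNA of injury, stood at -0.08, 0.60 and 0.15, and miR-125b-5p, which targets Tnf, at -1.24, 0.71 and 0.04, none past the threshold. miR-147 was determined on no card, miR-9 on 3 and miR-187 on 7.

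Markers of other liver cells gave a different picture. Of 4 hepatocyte miRNAs, 1 was lower at 1 week, 3 at 4 weeks and 1 at 8 weeks, when 14.5%, 16.9% and 0.602% of all tested assays were lower. Their summed level over the untreated mean was 0.983 and 1.02 on the untreated cards, and it ranged from 0.574 to 0.594 on the 1-week cards, from 0.340 to 0.382 on the 4-week cards and from 0.589 to 0.696 on the 8-week cards. With equal weights their mean log2 level over untreated was about -1.07 on both 1-week cards, from -2.34 to -2.04 on the 4-week cards and from -1.14 to -1.06 on the 8-week cards. miR-802 was the marker called at 1 and 8 weeks (-1.72, -3.28 and -2.04 at 1, 4 and 8 weeks, adjusted p = 0.00570, 0.000921 and 0.0123, limma), miR-192 and miR-194 were lower at 4 weeks (-2.76 and -2.49, adjusted p = 0.00455 for both), and miR-122 stood at -1.20, -0.23 and 0.09. Of 4 mesenchymal miRNAs, miR-199a-3p and miR-214 (1.69, adjusted p = 0.0110) were higher at 4 weeks, beside 13.3% of all tested assays. Both endothelial ones, miR-126-3p and miR-126-5p, were lower at 4 weeks (-1.83 and -1.65, adjusted p = 0.0142 and 0.0294), with none called at 1 or 8 weeks in either list. Neither of 2 erythroid assays was called against untreated. Of 5 endogenous control RNAs, 1 was higher and 2 lower at 1 week, beside 18.1% and 14.5% of all tested assays, and 2 were lower at 4 weeks. Whether cell makeup had a part in the levels of miR-146a, miR-146b and miR-155 was not tested.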

How the data were processed

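Total liver RNA (500 ng) was reverse transcribed without pre-amplification and run on TaqMan Array Rodent MicroRNA A Cards. The authors deposited raw Ct values per card, not normalized, with empty cells where no Ct was determined. The Ct software and threshold are not given in the sources used here. A second deposited table holds the authors' fold changes and was not used. The paper normalized each plate to its geometric mean, without naming the assays in that mean. Of the scalings run here, the one to everything detected may be the nearest to it. That scaling took the 1-week calls of miR-146a and miR-155. Each level was the mean Ct of the 149 assays that stayed below 35 throughout, less the Ct of the assay on that card. The 166 assays with a Ct on all 8 cards and an average below 35 were fitted with limma 3.58.1 in R 4.3.3 (lmFit, eBayes, 4 groups, all 8 cards, prior degrees of freedom 3.47), adjusted by Benjamini-Hochberg within a comparison at 0.05, and the procedure was tested on simulated data. Intervals are 95%. The number of cards limits precision, since 2 against 2 cards cannot give an exact two-sided p below 0.333.

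miR-146a, miR-146b and miR-155, the marker and inflammation lists and the tests were chosen with earlier results of these data known. Named assays were these 3, for each the 3 tested assays with the highest Pearson's r over the 8 cards, assays sharing a seed, and the inflammation-linked miRNAs that passed against untreated. All other single assays, the markers of cell types, miR-21, miR-125b-5p, U6 and the undetermined miRNAs among them, were named after their values were seen. Alternatives were 3 other scalings, mean Ct limits of 32 or none, eBayes with a trend, a block for the replicate number, and each card left out in turn. Figures were drawn with matplotlib 3.10.9.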

Additional observations from a re-analysis of the deposited data

Results flagged for a closer look

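The response of miR-146b differed between times on CCl4. The log2 difference of 4 weeks from 1 week was -2.54 (adjusted p = 0.00756 from limma), and that of 8 weeks from 1 week was -3.12 (adjusted p = 0.00719), the second not past the threshold without the second 1-week card (-3.25, adjusted p = 0.0518) or the second 8-week card (-2.87, adjusted p = 0.0615). Both cards of each later time were below both 1-week cards. In these comparisons 25.3% and 13.9% of all tested assays were called lower, and 22.9% had both 1-week cards above all other cards.

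Its level relative to the other two miRNAs on the same card also differed between times, in tests added after the values were seen. Relative to miR-146a the change was -1.74 from 1 to 4 weeks and -1.955 from 1 to 8 weeks (adjusted p = 0.0434 and 0.0298, limma). Both calls were lost with a block for the replicate number (adjusted p = 0.0804 and 0.0502). The first of these calls was lost without any 1 of the 6 CCl4 cards (adjusted p = 0.0517 to 0.258), and the second without either 1-week or either 8-week card (adjusted p = 0.0895 to 0.224). Relative to miR-155 it was -2.165 and -2.21 (adjusted p = 0.00304 and 0.00328), the first not past the threshold without the second 4-week card (-1.675, adjusted p = 0.0794). No group held 4 or more cards, so no card was examined as an outlier within its group.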

How the results depend on the processing

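What caused the changes listed here was not tested. The comparisons of the miRNAs with one another at single times were added after their values were seen. The permutation test over all exposures was planned, though with earlier results of these data known. miR-146b at 1 week kept its call under all alternatives run (3.34 to 4.09), as did its difference between 1 and 4 weeks (-3.19 to -1.66), and none of the 3 miRNAs fell below untreated under any.

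With cards scaled to everything detected, calls were lost for miR-146a at 1 week (1.43), for miR-155 at 1 week (1.04), at 4 weeks (0.75) and over any CCl4 (0.74), and assays changed numbered 1 at 8 weeks (5 in the main analysis), 24 over any CCl4 (48) and 1 between 4 and 8 weeks (2). With quantile normalization, calls were lost for miR-146b over any CCl4 (1.70) and miR-155 at 4 weeks (0.59) and over any CCl4 (0.65), and gained for miR-146a at 4 weeks (1.72) and over any CCl4 (1.39). The step of miR-146a from 1 to 4 weeks changed sign (0.11), and 20 assays changed between 1 and 8 weeks (40) and 9 between 4 and 8 weeks. With the control RNAs, miR-155 lost its call at 1 week (1.16), miR-146a gained it at 4 weeks (1.63) and over any CCl4 (1.42) and miR-146b at 4 weeks (1.84), the step from 1 to 4 weeks changed sign for miR-146a (0.085) and miR-155 (0.51), and 12 assays changed at 8 weeks and 1 between 4 and 8 weeks. With a mean Ct below 32, or eBayes with a trend, miR-146a over any CCl4 passed (1.13 in both), with 3 and 11 assays changed at 8 weeks, and with the trend miR-155 at 4 weeks did not pass (1.03).

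Same-numbered cards deviated together in the 4-week and 8-week groups (r across assays of the replicate differences 0.43) but not throughout, with r from -0.50 to 0.10 over the other pairs of groups, so the replicate numbers were not taken to pair the samples. With the replicate block, miR-155 at 4 weeks (1.03) did not pass in limma. Nor did miR-146b relative to miR-146a from 1 to 4 weeks (-1.74) or from 1 to 8 weeks (-1.955). The exact permutation test of miR-146b against miR-146a gave p = 0.438 with the block. Its smallest possible p was then 0.0625, so it could not pass. No assay changed between 4 and 8 weeks with the block by limma, against 25 at an unadjusted p under 0.05 and up to 9 under other settings.

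Leaving out 1 card leaves a lone card in its group, which is assumed to vary like the others. For miR-146a the log2 difference then ran from 1.27 to 2.31 at 1 week, 0.47 to 1.51 at 4 weeks, 0.099 to 1.14 at 8 weeks (each lowest without the first and highest without the second untreated card), 0.61 to 1.65 over any CCl4, -1.19 to -0.41 from 1 to 4 weeks, -1.57 to -0.77 from 1 to 8 weeks and -0.775 to 0.030 between 4 and 8 weeks, with the call over any CCl4 gained without the second 4-week (1.26) or second 8-week card (1.27). For miR-146b it ran from 0.55 to 1.845 at 4 weeks, 0.25 to 0.96 at 8 weeks (without the first and second untreated card), 1.49 to 2.20 over any CCl4, -3.38 to -2.87 from 1 to 8 weeks and -1.24 to 0.062 between 4 and 8 weeks. For miR-155 it ran from 1.14 to 1.66 at 1 week, 0.80 to 1.26 at 4 weeks, 0.26 to 0.72 at 8 weeks (without the first and second untreated card), 0.745 to 1.20 over any CCl4, -0.63 to -0.11 from 1 to 4 weeks, -1.18 to -0.65 from 1 to 8 weeks and -0.70 to -0.38 from 4 to 8 weeks. The number of assays changed ran from 15 to 59 at 1 week, 22 to 51 at 4 weeks, 0 to 6 at 8 weeks, 7 to 46 over any CCl4, 30 to 75 from 1 to 4 weeks, 4 to 49 from 1 to 8 weeks and 0 to 1 from 4 to 8 weeks. Relative to miR-146a, miR-146b ran from 1.78 to 2.11 at 1 week, -0.055 to 0.465 at 4 weeks, -0.175 to 0.155 at 8 weeks, -2.00 to -1.48 from 1 to 4 weeks and -2.105 to -1.805 from 1 to 8 weeks. Relative to miR-146a, miR-155 ran from -0.675 to -0.095 at 1 week and -0.25 to 0.33 at 4 weeks. It ran from -0.52 to 0.26 at 8 weeks and -0.135 to 0.645 from 1 to 8 weeks. Relative to miR-155, miR-146b ran from -0.325 to 0.655 at 4 weeks, -0.125 to 0.365 at 8 weeks and -2.655 to -1.675 from 1 to 4 weeks.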
